A study of Mus musculus with 23 samples.

Results

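Esr1, Pgr and Nr3c1, the genes of the estrogen receptor alpha, the progesterone receptor and the glucocorticoid receptor, were followed together with Greb1, an estrogen-induced gene, in the endometrium of 23 mouse uterine horns. They are 4 of the 18682 features in the deposited count table, were found there by their Ensembl identifiers (ENSMUSG00000019768, ENSMUSG00000031870, ENSMUSG00000024431 and ENSMUSG00000036523), and each was measured in every horn. All mice were female C57BL/6. In the injury model, ethanol damaged the endometrium and the horn was injected 4 days later. The 6 HG+ORG horns received a hydrogel with human endometrial organoids, so human cells were placed in mice that the series title calls immunocompetent. The 6 HG horns received the same endometrium-derived hydrogel alone, the 5 PBS horns phosphate-buffered saline, and what the 6 SHAM horns received is not stated in the labels or the design text. Tissue was taken 2 weeks after injection, and the endometrium was pressed out of each horn by hand. Neither age nor estrous stage is stated there. The design text counts 21 mice taken for all assays at this time against 23 sequenced horns, and the labels do not tie horns to mice, so some horns share an animal. P-values therefore measure only the spread between these horns and can be too small.

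Steroid receptors are transcription factors that bind a hormone and then regulate genes whose DNA carries their response elements. In the uterus, estrogen acting through Esr1 drives growth and secretion of the epithelium and is a classical inducer of Pgr and Greb1, and progesterone acting through Pgr restrains that growth and prepares the tissue for implantation. Nr3c1 is expressed in most cell types and mediates anti-inflammatory and metabolic effects of glucocorticoids. Uterine Esr1 and Pgr levels change over the estrous cycle.

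The windows below are shown because Greb1 is the estrogen target among the 4 genes. The RefSeq promoter table (build GRCm38.p6, 250 bases before to 50 after a start) held 5 start sites of 3 of the genes: Esr1, Pgr and Greb1. They were searched on both strands for the consensus palindrome of the estrogen response element, for GGTCA, which is 1 arm of that palindrome, and for TGTTCT, 1 arm of the element that progesterone and glucocorticoid receptors share. A full estrogen palindrome would contain the GGTCA arm on both strands. The palindrome was in none of the 5 windows, and in 0.07% of 32851 mouse promoters. The GGTCA arm, in capitals below as it reads 5′ to 3′ on the gene's strand (TGACC is its reverse complement), was in 3 of the 5 windows and in 40.5% of all promoters. TGTTCT was in none of the 5 and in 19.0% of all promoters. The Pgr window and the second Esr1 window held none of these letters.
Esr1 first start, chr10:4611991-4612020, plus strand: ttcctaatttcatGGTCAtaacagcctcgg
Greb1 first start, chr12:16800958-16800987, minus strand: gccaagcaacaaaTGACCtctgtccccgga
Greb1 second start, chr12:16757417-16757446, minus strand: ctcctaccaggcgGGTCActggggattgaa
Greb1 second start, chr12:16757308-16757337, minus strand: tgatttcaggaagGGTCActtatggtgggt
The arm at the first Esr1 start began 16 bases after it, and the Greb1 arms began 88, 194 and 85 bases before theirs. A motif of this length is common, as its frequency above shows, and the letters alone do not show binding.

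Libraries held 7920918 to 14902952 counts, with a median of 12701407. Levels are given in log2 CPM, that is, counts relative to the library's total after trimmed mean of M-values (TMM) scaling, and are compared within a gene only. HG+ORG replicate 18 stood apart from every other library. Its macrophage marker score, the mean log2 CPM of 12 genes such as Adgre1, Csf1r and Lyz2, was 9.68, against 2.10 to 6.51 in the other 22 horns. Its uterine epithelium score, over 12 genes such as Epcam, Krt8 and Cdh1, was 6.34, against 7.89 to 10.5. Epcam and Cdh1 were still measured there, at 7.13 and 6.93 log2 CPM, so epithelial transcripts were present in all 23 libraries. They were 9.39-fold and 9.2-fold below the mean of the other 22 horns. Whether epithelial transcripts of an HG+ORG horn came from mouse or human cells cannot be told from these counts. SHAM replicates 5 and 6 were far closer to each other than any other pair of one group: a chi-square test of their counts over genes gave 2.90 per degree of freedom, where the next closest pair gave 17.9. They differed by more than counting noise and were kept as separate samples.

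Esr1 was the steadiest of the 4 genes, apart from one horn. In HG+ORG horns its level was 3.82 log2 CPM in replicate 18 and 8.18, 8.07, 8.21, 8.55 and 8.14 in the other 5. In HG horns the lowest, median and highest were 8.22, 8.33 and 8.75, and the 5 PBS horns ran from 8.21 to 8.76 with a median of 8.44. In SHAM horns they were 8.17, 8.32 and 8.89. Replicate 18 was 4.56 log2 units, or 23.6-fold, below the mean of the other 22 horns, with 113 raw counts, where every other library had at least 2697. The groups overlapped, with a mean of 7.50 ± 1.81 in HG+ORG (SD, n = 6), 8.39 ± 0.20 in HG (n = 6), 8.49 ± 0.23 in PBS (n = 5) and 8.41 ± 0.26 in SHAM (n = 6). With the libraries scaled again without replicate 18, the HG+ORG mean was 8.24 ± 0.18 (n = 5), and it was still the lowest of the 4 means, although its range overlapped that of each other group.

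**Figure D1:**
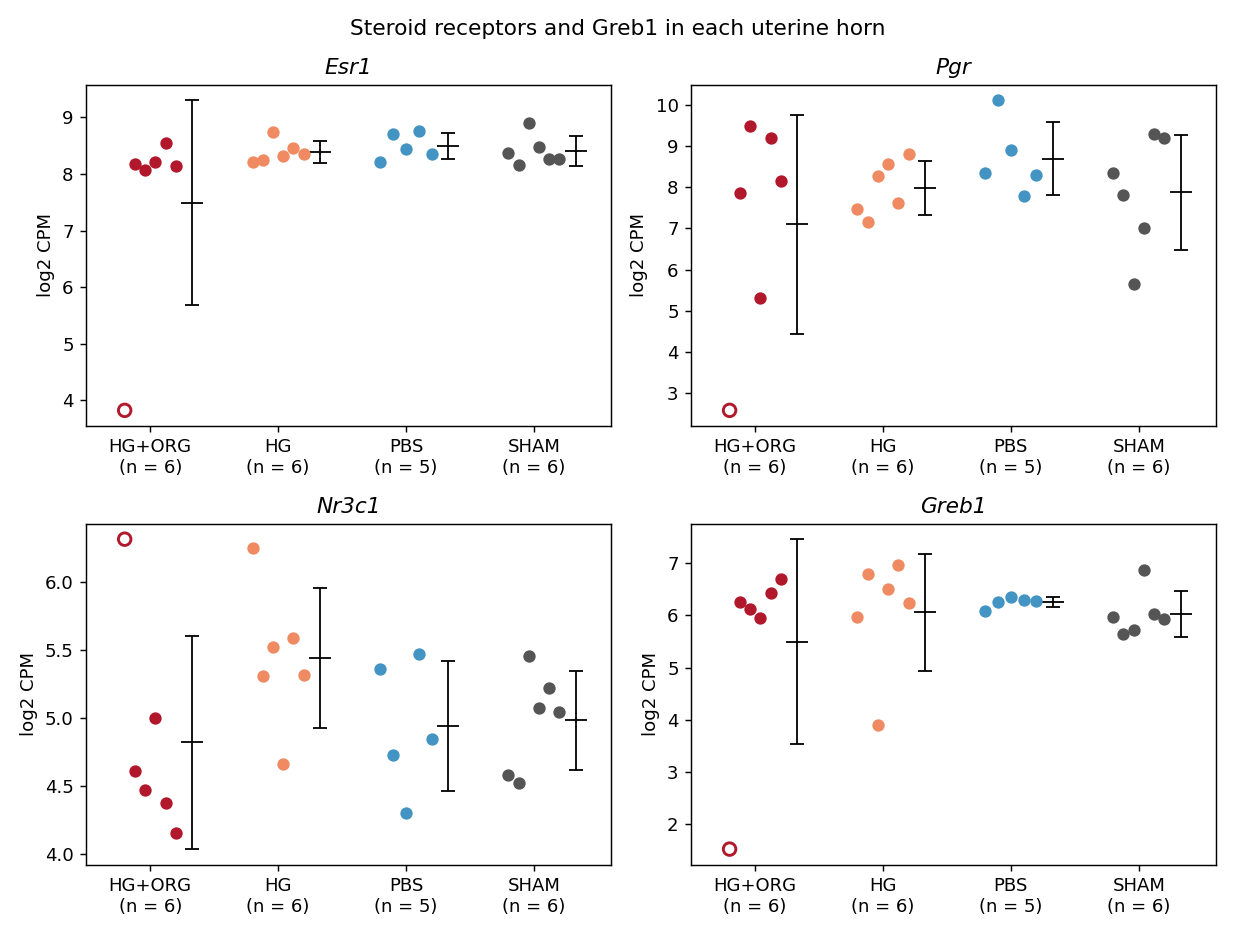
Level of each gene in log2 CPM (vertical axis) in every horn of the HG+ORG, HG, PBS and SHAM groups, with a dash and bar for the group mean and SD over all its horns. The open circle is HG+ORG replicate 18, which lies at 3.82 for Esr1, 2.58 for Pgr and 1.53 for Greb1, below every other horn, and at 6.32 for Nr3c1, above every other horn.

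Pgr, which encodes the progesterone receptor, had the largest pooled SD within groups of the 4 genes, at 1.63 log2 units over all horns and 1.18 without replicate 18. In HG the SD of Greb1 was larger (1.12, against 0.66 for Pgr). Over the 5 HG horns other than replicate 14 the SD was 0.40 for Greb1 and 0.72 for Pgr. Pgr was 2.58, 7.87, 9.49, 5.31, 9.21 and 8.16 log2 CPM in HG+ORG replicates 18 to 23. It was 7.46, 7.15, 8.28, 8.56, 7.63 and 8.81 in HG horns. The 5 PBS horns held 8.35, 10.1, 8.90, 7.79 and 8.30. The SHAM horns held 8.34, 7.82, 5.64, 7.01, 9.29 and 9.20. Apart from replicate 18, the lowest Pgr levels were in HG+ORG replicate 21 and SHAM replicate 3, with 359 and 502 raw counts, so they came from different groups. Even with the libraries scaled again without replicate 18, the range within HG+ORG was 17.6-fold. On the same scaling it was 12.0-fold within SHAM, 3.2-fold in HG and 4.76-fold in PBS. The 2 highest SHAM horns were replicates 5 and 6, the near-identical pair.

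Nr3c1, the glucocorticoid receptor, had the reverse standing of replicate 18. In HG+ORG horns it was 6.32 log2 CPM in replicate 18 and 4.61, 4.47, 5.00, 4.37 and 4.15 in the others. HG horns held 6.25, 5.31, 5.53, 4.66, 5.59 and 5.32, and SHAM horns ran from 4.52 to 5.45 with a median of 5.06. PBS horns held 5.36, 4.72, 4.30, 5.47 and 4.85. The highest horn of the series was therefore an HG+ORG horn, while the other 5 HG+ORG horns lay at or below 5.00 and 5 of the 6 HG horns lay at or above 5.31. The mean was 4.82 ± 0.79 in HG+ORG, 5.44 ± 0.52 in HG, 4.94 ± 0.48 in PBS and 4.98 ± 0.36 in SHAM (SD, n = 6, 6, 5 and 6). Without replicate 18 the HG+ORG mean was 4.53 ± 0.33 (n = 5), and the order of the means was HG, SHAM, PBS, HG+ORG. Each neighbouring pair in that order overlapped in range.

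Greb1, whose product is a cofactor of the estrogen receptor, was narrow in PBS horns, and its spread in HG+ORG and HG was widened by 1 low horn in each. The 5 HG horns other than replicate 14 had an SD of 0.40. HG+ORG horns held 1.53, 6.25, 6.12, 5.94, 6.43 and 6.70 log2 CPM. HG horns held 5.97, 6.78, 3.90, 6.51, 6.96 and 6.24. PBS horns ran from 6.09 to 6.35, with an SD of 0.10 (n = 5), and SHAM horns held 5.97, 5.65, 5.73, 6.86, 6.02 and 5.93. HG replicate 14, at 3.90, was low for Greb1 while its Esr1 and Pgr were 8.75 and 8.28. HG+ORG replicate 18, with 22 counts, was low for Greb1, Esr1 and Pgr alike. The means were 5.50 ± 1.96 in HG+ORG, 6.06 ± 1.12 in HG, 6.25 ± 0.10 in PBS and 6.03 ± 0.43 in SHAM, and 6.30 ± 0.28 in HG+ORG without replicate 18.

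None of the 4 genes passed the test in any of the 6 pairwise comparisons of groups. edgeR's quasi-likelihood test with Benjamini-Hochberg adjustment over 17708 genes called 0 genes (0%) in HG+ORG vs SHAM, HG vs SHAM, PBS vs SHAM, HG+ORG vs HG, HG+ORG vs PBS and HG vs PBS. At an unadjusted p under 0.05 it gave 1754, 1996, 385, 1737, 1079 and 597 genes in these comparisons in the same order, or 9.91%, 11.3%, 2.17%, 9.81%, 6.09% and 3.37%. None of the 4 genes was among them. DESeq2 called 95, 292, 2, 172, 1 and 0 genes, again none of the 4. limma-voom called 0 in each. The 6 comparisons share groups and are not independent.

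Without replicate 18 edgeR also called 0 of 17664 genes (0%) in each comparison, and an unadjusted p under 0.05 was reached by 608, 2740, 569, 2117, 489 and 995 genes in the same order of comparisons (3.44%, 15.5%, 3.22%, 12%, 2.77% and 5.63%). Nr3c1 then had the strongest difference of the 4 genes: HG+ORG vs HG gave a log2 fold change of -0.99 (SE 0.27), with an unadjusted p of 0.00122 and an adjusted p of 0.169. It was the only one of the 4 genes under an unadjusted 0.05, in a comparison where 12% of all genes were, 9.27% with a lower level. With all horns the same fold change was -0.49 (SE 0.33, adjusted p = 0.731). HG vs SHAM gave 0.50 for Nr3c1 (SE 0.33, adjusted p = 0.608), and HG vs PBS gave 0.52 (SE 0.35, adjusted p = 0.991).

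For Esr1 the fold change was negative in HG+ORG vs SHAM, at -0.44 (SE 0.39, adjusted p = 0.764), and -0.21 without replicate 18 (SE 0.15, adjusted p = 1). It was -0.41 in HG+ORG vs HG (SE 0.39) and -0.52 in HG+ORG vs PBS (SE 0.41), and between -0.11 and 0.08 in the 3 comparisons without HG+ORG. For Pgr the largest differences were -0.83 in HG vs PBS (SE 0.76, adjusted p = 0.991) and -0.65 in HG+ORG vs PBS (SE 0.76, adjusted p = 0.952). Its SE of 0.73 to 0.76 means that differences of this size were not detectable here. For Greb1 all 6 fold changes lay between -0.26 and 0.23, with SEs of 0.49 to 0.51.

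**Figure D2:**
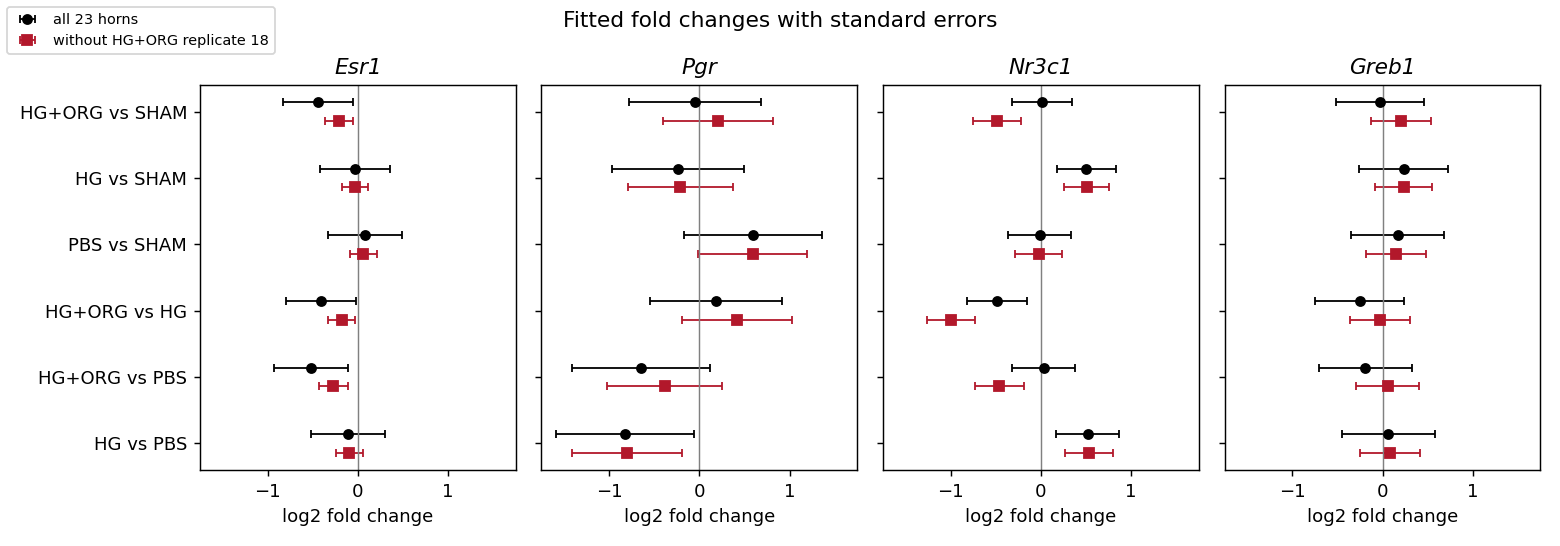
Fitted log2 fold change (horizontal axis) with its SE for each gene in the 6 comparisons, over all 23 horns (black circles) and over the 22 horns without HG+ORG replicate 18 (red squares). Nr3c1 in HG+ORG vs HG moves to -0.99 without that horn, and the SE of Esr1 in HG+ORG vs SHAM narrows to 0.15, against 0.39 with it.

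The 4 genes differed in how far they spread over horns. Over the 22 horns without replicate 18, the SD of Esr1 was 0.23 log2 units, at percentile 11.3 of 391 genes of similar level (within 0.5 log2 units). The SD of Pgr was 1.14, at percentile 96.3 of 486 such genes. Greb1 had an SD of 0.62, at percentile 86.9, and Nr3c1 one of 0.53, at percentile 75.8. With replicate 18 included, Esr1 had an SD of 0.98 and was at percentile 91.2, so that 1 horn moved it to the other end of the distribution. Pgr was at percentile 98.1 with all horns.

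**Figure D3:**
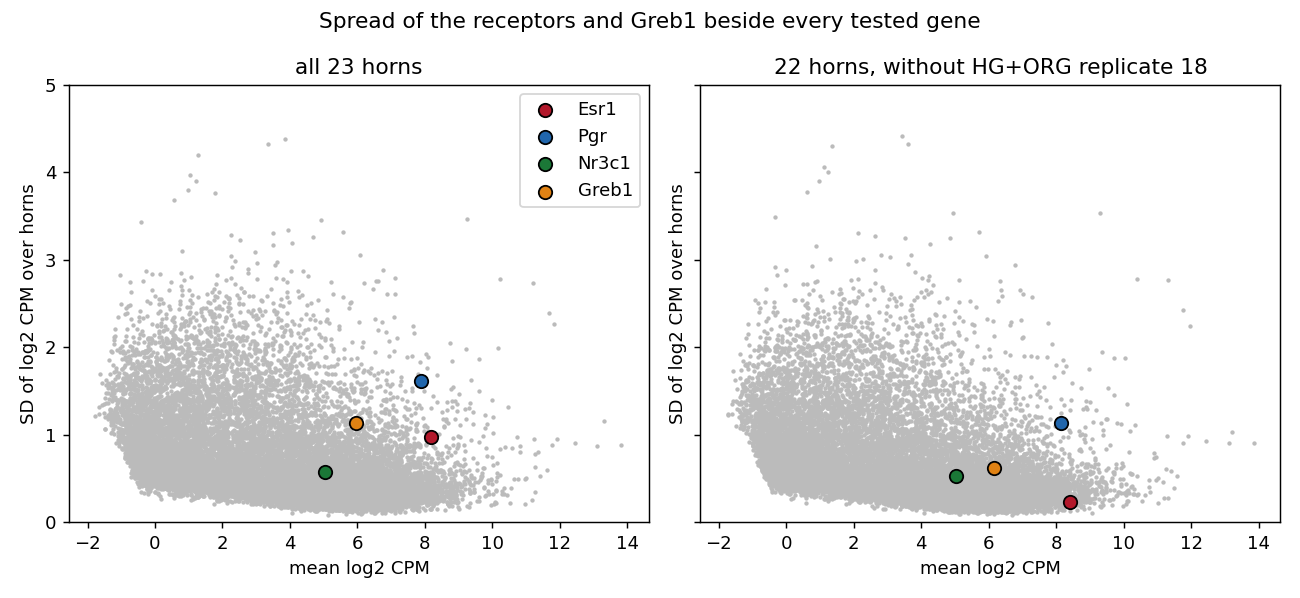
SD of log2 CPM over horns (vertical axis) against mean log2 CPM (horizontal axis) for every tested gene (grey) and the 4 genes (coloured), over all 23 horns on the left and over 22 horns on the right. Esr1 drops to an SD of 0.23 on the right, while Pgr stays at 1.14, among the more variable genes of its level.

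Ratios of 2 genes within a library do not depend on library scaling. Greb1 over Esr1, as log2 of the count ratio, averaged -2.01 ± 0.32 in HG+ORG, -2.33 ± 1.28 in HG, -2.24 ± 0.20 in PBS and -2.38 ± 0.50 in SHAM (SD, n = 6, 6, 5 and 6). All 6 HG+ORG horns lay between -2.33 and -1.44, replicate 18 included, so its Greb1 and Esr1 were lower by a similar factor. HG replicate 14 stood alone at -4.86. Pgr over Esr1 ran from -2.91 to 1.42 in HG+ORG and from -3.26 to 1.03 in SHAM. Nr3c1 over Esr1 was 2.50 in replicate 18, and -4.18 to -1.97 in the other 22 horns. None of 18 ratio comparisons passed an exact two-sided permutation test after Benjamini-Hochberg adjustment, with a lowest adjusted p of 0.779. Without replicate 18 the lowest was 0.468, which included Nr3c1 over Esr1 in HG+ORG vs HG, with a difference of -0.77 and an unadjusted exact p of 0.0281.

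Over all 23 horns Esr1 correlated with Greb1 (Pearson r = 0.79, permutation p = 0.0384, adjusted over 6 pairs 0.0461), but Spearman rho was 0.20 (adjusted permutation p = 0.606). Esr1 and Pgr gave r = 0.68 (adjusted permutation p = 0.0449) and rho = 0.09 (adjusted 0.691). Both relations rested on replicate 18: without it r was -0.24 for Esr1 and Greb1 and -0.19 for Esr1 and Pgr. Leaving out the 2 horns farthest from the median of Esr1 gave r of -0.24 and 0.18. Pgr and Nr3c1 ran opposite to each other, with r = -0.57 (adjusted permutation p = 0.028) and rho = -0.50 (adjusted 0.0978). That relation was -0.44 without the 2 farthest horns and -0.39 without replicate 18 (adjusted permutation p = 0.426), and so no longer passed. As deviations from group means it passed, with r = -0.72 and rho = -0.61 (adjusted permutation p = 0.00186 and 0.0154). It was r = -0.51 as deviations without replicate 18 (adjusted permutation p = 0.0913). The other pairs also passed by r as deviations over all horns, and no pair did without replicate 18. Pgr and Greb1 gave r = 0.61 and, without replicate 18, -0.02. Nr3c1 and Greb1 gave -0.51 and, without it, -0.19.

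Levels were set beside marker scores of the cell types that a pressed-out endometrium can hold, in 20 relations of the 4 genes with 5 scores that were chosen after their values had been seen. Scores of other cell types, such as neutrophils and adipocytes, were left out. The adjusted p-values cover only these 20 relations and do not allow for that choice, so they can be too small. In bulk tissue, fewer cells of a type and less RNA per cell cannot be told apart. Nr3c1 was high where endothelial markers were high: with a score over 10 genes such as Pecam1, Cdh5 and Kdr, r was 0.78 and rho 0.80 over 23 horns (adjusted permutation p = 0.0002 and 0.0006). Without replicate 18, r was 0.77, and over 23 horns less the 2 farthest from the median score it was 0.76. As deviations from group means r was 0.74, and it was 0.66 when replicate 18 was also left out. Nr3c1 also followed the endometrial stroma score, with r = 0.64 and rho = 0.72 (adjusted permutation p = 0.00647 and 0.0014), and the smooth muscle score, with r = 0.55 and rho = 0.68 (adjusted permutation p = 0.0204 and 0.0035). As deviations from group means the smooth muscle relation did not pass (r = 0.43 and rho = 0.51, adjusted permutation p = 0.071 and 0.067), nor did it when replicate 18 was also left out (r = 0.39 and rho = 0.47, adjusted permutation p = 0.251 and 0.12). The stroma relation passed as deviations (r = 0.56 and rho = 0.56, adjusted permutation p = 0.016 and 0.0435), but without replicate 18 it passed by r and not by rank (r = 0.54 and rho = 0.47, adjusted permutation p = 0.0484 and 0.12). The endothelial score was 2.06 ± 1.99 in HG+ORG, 4.70 ± 1.12 in HG, 2.27 ± 3.09 in PBS and 1.82 ± 1.16 in SHAM, and the smooth muscle score 1.96 ± 1.47, 4.73 ± 1.83, 2.69 ± 2.68 and 2.02 ± 0.39 in the same order of groups. Both were thus highest in the group in which mean Nr3c1 was highest. Their part in the Nr3c1 differences was not tested.

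Esr1 was lower where macrophage markers were higher. Over 23 horns r was -0.80 and rho -0.68 (adjusted permutation p = 0.0012 and 0.0035), and without replicate 18 r was -0.58 and rho -0.56 (adjusted permutation p = 0.0202 and 0.0282). As deviations from group means without replicate 18, r was -0.56 (adjusted permutation p = 0.0483). Over those 22 horns Esr1 spanned 1.85-fold. The macrophage score was 5.94 ± 2.06 in HG+ORG, 5.12 ± 0.49 in HG, 4.29 ± 1.47 in PBS and 4.10 ± 0.73 in SHAM, and its part in the Esr1 levels was not tested. The HG+ORG mean rested on replicate 18, at 9.68, and without it was 5.19 ± 1.05 (SD, n = 5), close to that of HG. Pgr and the uterine epithelium score showed the largest effect of replicate 18 among the 20 relations: r was 0.22 over all horns (adjusted permutation p = 0.352) and -0.70 without replicate 18 (rho -0.68, adjusted permutation p = 0.0045 and 0.00375), and -0.79 as deviations from group means of those 22 horns. The horns with the highest epithelium scores, HG+ORG replicate 21 at 10.4 and SHAM replicate 3 at 10.5, were the lowest for Pgr of those 22. Greb1 followed the epithelium score over all horns (r = 0.78, adjusted permutation p = 0.0089) but not by rank (rho = 0.19) or without the 2 farthest horns (r = -0.16).

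**Figure D4:**
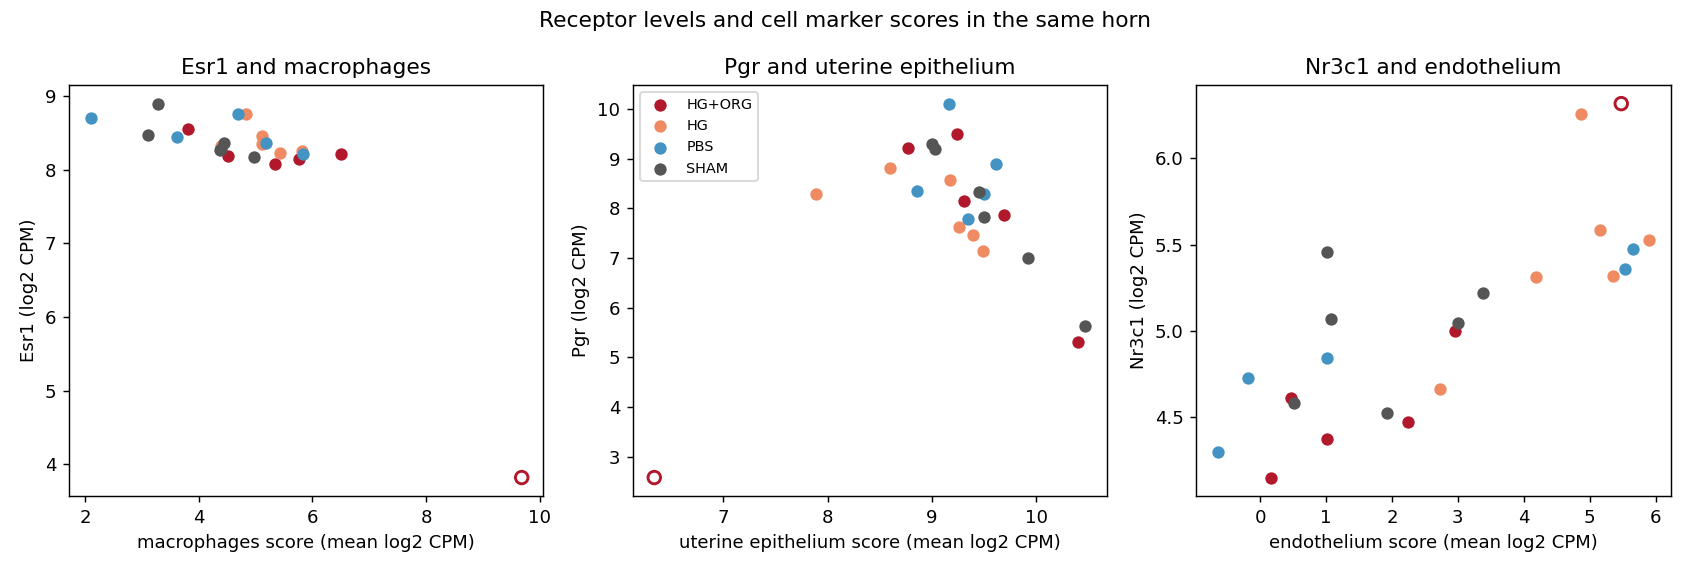
Level of Esr1, Pgr and Nr3c1 (vertical axes, log2 CPM) against the macrophage, uterine epithelium and endothelium scores (horizontal axes, mean log2 CPM of the markers), 1 point per horn coloured by group, with HG+ORG replicate 18 as an open circle. Nr3c1 climbs with the endothelium score (r = 0.78), and Pgr declines with the epithelium score once the open circle is set aside.

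The genes whose levels ran most like each of the 4, by Spearman rho over 23 horns among 9974 genes with a mean of at least 3 log2 CPM, gave close partners for Pgr. They were Greb1l (rho 0.96), a paralog of Greb1, Irs1 (0.96), an adaptor of insulin and IGF signalling, and Pias2 (0.96), a SUMO ligase. The most opposite were Prdx5 (-0.95), an antioxidant enzyme, and Nfkbia (-0.94), the inhibitor of NF-kappa-B. Without replicate 18 the list was led by Rps6ka2, a ribosomal S6 kinase (0.98), followed by Greb1l and Irs1, and Prdx5 and Nfkbia again stood lowest. Irs1 was -1.83 log2 CPM in HG+ORG replicate 18, 1.88 in HG+ORG replicate 21 and 1.34 in SHAM replicate 3, and 7.18 in PBS replicate 8, the horn with the most Pgr.

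For Nr3c1 the closest were Dlc1 (rho 0.92), a tumour suppressor, Cav1 (0.90), the main coat protein of caveolae, and Thbd (0.89), endothelial thrombomodulin. Without replicate 18 they were Dlc1 (0.93), Ndrg2 and Fzd4 (both 0.90), the last a Wnt and norrin receptor of vessels. Samd10 (-0.85) and Ash2l (-0.82), a histone methylation cofactor, were most opposite over all horns. Esr1 was most like Ralgapa1, Ift122 and N4bp2l2 (all 0.83), and most opposite to Cd74 (-0.88), the invariant chain of antigen presentation, and Mpeg1 (-0.86), perforin-2 of macrophages. Greb1 was most like Riok1 (0.88), a kinase of ribosome assembly, Srrt (0.77) and Padi4 (0.77), a peptidylarginine deiminase, and most opposite to Pgm1 (-0.82) and Adipor1 (-0.81). These values describe 23 horns that share depth and cell makeup, and carry no test.

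**Figure D5:**
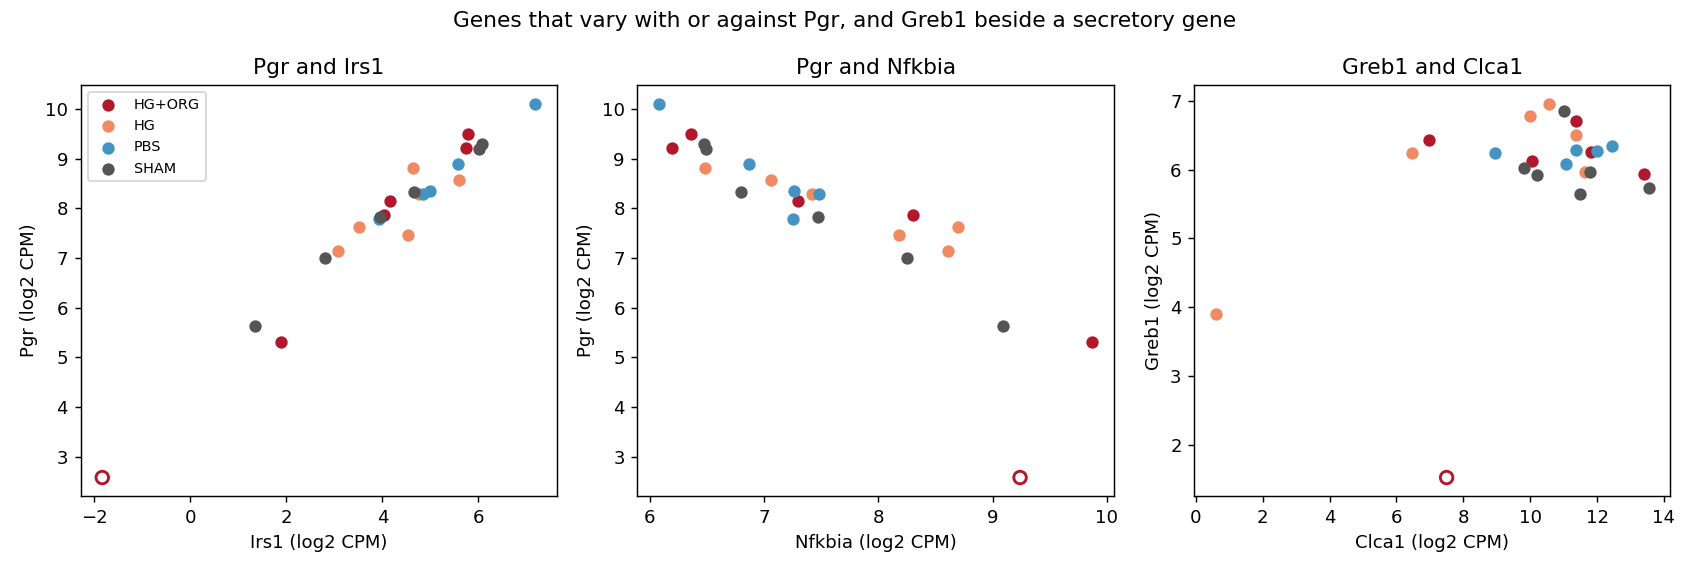
Pgr against Irs1 and against Nfkbia, and Greb1 against Clca1, a secretory estrogen-responsive gene (all axes in log2 CPM), 1 point per horn coloured by group, with HG+ORG replicate 18 as an open circle. Pgr climbs with Irs1 from 1.34 to 7.18 over the 22 other horns, and HG replicate 14 lies alone at 0.60 for Clca1 and 3.90 for Greb1.

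The 2 horns with low Greb1 differed in other estrogen targets. Of 19 tested genes known to respond to estrogen in the uterus, 8 were at their lowest of the 23 horns in HG replicate 14 and 4 in HG+ORG replicate 18. The targets did not all lie low in replicate 18, where 3 of the 19 were at their highest of 23. These were Ctss at 12.4 log2 CPM, a lysosomal protease, Cdkn1a at 8.44, a cell cycle inhibitor, and Susd3 at 5.05. Ctss is also a gene of the macrophage score, which was highest in that horn. In HG replicate 14, 1 of the 19 was at its highest. The share of all genes at their lowest or highest in these 2 horns was not counted. The counts therefore do not show whether estrogen targets lay at an extreme more often than other genes. In HG replicate 14, Clca1 was 0.60 log2 CPM, against 6.47 to 11.7 in the other 5 HG horns. Ltf, the secreted lactoferrin, was 4.70, against 9.38 to 13.6, and Lcn2 and C3 were 4.21 and 5.66, against at least 6.72 and 7.31. Its epithelium score was 7.89, the lowest of the 22 horns without replicate 18, and its stroma score 7.82, the highest of all. In replicate 18 Ltf was 9.23 and Clca1 7.50, while Wnt7a, a Wnt ligand of the uterine epithelium, and Muc1, a surface mucin, were at their lowest of 23, at 3.63 and 6.50. The part of cell makeup in either horn was not tested.

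Other hormone receptors were described from a list of 10, of which 9 were tested and none was called (0 genes in any comparison by edgeR). Group ranges that do not overlap were seen for 1.43% of all genes in HG vs SHAM, and for none of Esr1, Pgr, Nr3c1 and Greb1. Nr3c2, the mineralocorticoid receptor, was low, at 0.49 ± 0.41 log2 CPM (mean ± SD) in HG+ORG, 1.17 ± 0.75 in HG, 1.58 ± 0.47 in PBS and 0.72 ± 0.45 in SHAM. Esr2, the estrogen receptor beta, was near the limit of detection, between -2.66 and 0.88 log2 CPM in all horns. Paqr7, a membrane progesterone receptor, was 5.23 log2 CPM in HG+ORG replicate 18, against 0.03 to 2.43 in the other 22 horns, while Paqr8, of the same family, was 2.61 there, against 4.61 to 6.93.

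Genes that act with the receptors were not called either, but edgeR called 0% of all genes in every comparison, so this holds for any list. None of 8 chaperones such as Fkbp5 and Hsp90ab1, 15 coregulators such as Ncoa1 and Nrip1, 8 tested partner factors such as Foxa2 and Gata2, or 10 tested steroid enzymes such as Hsd11b1 passed in any comparison. Of 14 glucocorticoid targets, 11 had a fold change above 0 in HG vs SHAM, with a median of 0.70, against 0.00 for all genes, and none passed. Of all 17708 genes, 8894 lay above 0 in HG vs SHAM, 9974 in HG+ORG vs SHAM and 9487 in PBS vs SHAM. Without replicate 18, 9085 of 17664 did in HG+ORG vs SHAM. Of the 14 targets, 12 lay above 0 in HG+ORG vs SHAM (median 0.54), and 10 without replicate 18 (median 0.27). In PBS vs SHAM 9 of the 14 targets did (median 0.24), nearer the share of all genes. None of the targets was called. The leading members in HG vs SHAM were Zbtb16 (log2 fold change 4.33, SE 0.93, adjusted p = 0.248), a zinc finger factor known to be induced by glucocorticoids and progesterone, and Klf9 (1.68, SE 0.48, adjusted p = 0.248). Zbtb16 was 4.65 and 5.28 log2 CPM in HG replicates 12 and 14. It was 0.75 to 1.92 in the other HG horns and -2.66 to 0.48 in SHAM horns. Klf9 was 6.88 and 6.53 in HG replicates 12 and 14, 4.58 to 6.04 in the other HG horns and 3.10 to 4.67 in SHAM horns. The size of both fold changes thus rested largely on these 2 horns. In HG+ORG vs HG the same genes were at -4.10 and -1.44 (adjusted p = 0.27 and 0.281). In HG vs SHAM the smooth muscle list had 12 of 12 members above 0 with a median of 3.68, none of them called, and its part in the glucocorticoid targets was not tested. Of 19 estrogen targets 12 lay below 0 in HG vs SHAM (median -0.38), and of 15 progesterone targets 11 lay above (median 0.47), with none called. Of all 17708 genes, 8814 lay below 0 and 8894 above in that comparison. The 2 progesterone targets with the smallest p there, Hoxa11 and Hoxa10 (log2 fold change 3.16 and 3.14), are also genes of the endometrial stroma score. All 11 genes of that score lay above 0 in HG vs SHAM (median 2.83). So did all 10 genes of the endothelium score (median 2.88), and none was called. The part of cell makeup in the target counts was not tested.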

How the data were processed

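RNA was measured by stranded poly(A) sequencing. The values deposited are raw counts of reads for each gene, whole numbers with a different total in each library. The submitters' processing notes name Trimmomatic 0.39, HISAT2 2.2.1 and featureCounts 2.0.3 on build GRCm39. Their strand setting is not stated, and reads of human organoid cells cannot be told apart from mouse reads. Every deposited row had at least 10 counts in at least 3 libraries.

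Counts were analysed in edgeR 4.0.16 (R 4.3.3), with TMM factors, filterByExpr by group (17708 genes kept), and all 4 groups in 1 quasi-likelihood fit, adjusted over all genes at 0.05. SEs are the absolute log2 fold change over the square root of F. Log2 CPM used a prior count of 2, and ratios a pseudocount of 0.5. A fitted fold change compares mean counts and can differ from the difference of mean log2 levels. Correlations used 100000 resamples. The fit was also run on simulated counts with the same dispersion for every gene and no outlying horn. That run cannot show how the fit behaves on these horns. Alternatives were DESeq2 1.42.0, limma 3.58.1 (voom), other size factors and filters, covariates and leaving out each horn. The 4 genes always entered the text; other genes were the 3 most and 2 least similar by rho, and list genes, where any beyond the 2 with the smallest p were chosen after their values were seen. The genes and lists were chosen with earlier results of these data known. Of the other hormone receptors listed, 1 is not reported here.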

Additional observations from a re-analysis of the deposited data

Results flagged for a closer look

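In 16 sets of horns (4 genes in 4 groups), 4 had an end horn whose gap to the next exceeded Dixon's 95% limit, and chance alone flags about 1 in 20 such sets. HG+ORG replicate 18 was far below its group for Esr1, at 3.82 log2 CPM, where the next horn was at 8.07. The same horn was far below its group for Greb1, at 1.53, where the next was at 5.94. HG replicate 14 was far below its group for Greb1, at 3.90, where the next was at 5.97. SHAM replicate 4 was far above its group for Greb1, at 6.86, where the next was at 6.02. Pgr in HG+ORG replicate 18 was not flagged, since HG+ORG replicate 21 was also low.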

How the results depend on the processing

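No paired analysis was possible because the replicate numbers in the labels run from 1 to 23 without repeating across groups. No fold change or ratio of the 4 genes passed its threshold under any alternative. DESeq2 called 95 genes in HG+ORG vs SHAM, 292 in HG vs SHAM, 2 in PBS vs SHAM, 172 in HG+ORG vs HG and 1 in HG+ORG vs PBS, where edgeR called 0, and a fit of the HG and SHAM horns alone called 386. Leaving out 1 horn at a time gave 0 to 1 genes in HG+ORG vs HG, the 1 without PBS replicate 10. Several fold changes close to 0 changed sign, and the cause was not tested. With limma-voom Nr3c1 was -0.23 in HG+ORG vs SHAM and -0.205 in HG+ORG vs PBS, Pgr 0.129 in HG vs SHAM and -0.932 in HG+ORG vs HG, and Greb1 -0.201 in HG vs PBS. With the smooth muscle score as a covariate Nr3c1 was -0.0349 in HG+ORG vs SHAM, Esr1 0.118 and Pgr 0.316 in HG vs SHAM, and Pgr -0.367 in HG+ORG vs HG. With the epithelium score as a covariate Nr3c1 was -0.308 and Greb1 0.251 in HG+ORG vs SHAM, Esr1 0.428 in HG vs SHAM and 0.171 in HG vs PBS, and Nr3c1 -0.182 in HG+ORG vs PBS. With SHAM replicates 5 and 6 summed, an alternative chosen after seeing the data, Pgr was 0.224 in HG+ORG vs SHAM and 0.0471 in HG vs SHAM. Leaving out 1 horn at a time, HG+ORG vs SHAM ran from -0.486 to 0.235 for Pgr, -0.489 to 0.143 for Nr3c1 and -0.195 to 0.204 for Greb1. HG vs SHAM ran from -0.106 to 0.0966 for Esr1 and -0.437 to 0.0732 for Pgr, and PBS vs SHAM from -0.161 to 0.118 for Nr3c1. HG+ORG vs HG ran from -0.252 to 0.416 for Pgr, HG+ORG vs PBS from -0.463 to 0.174 for Nr3c1 and -0.363 to 0.0556 for Greb1, and HG vs PBS from -0.0949 to 0.283 for Greb1. Under the same settings the log2 ratio Pgr over Esr1 ran from -0.419 to 0.63 in HG+ORG vs SHAM, -0.432 to 0.427 in HG vs SHAM and -0.35 to 0.515 in HG+ORG vs HG. Greb1 over Esr1 ran from -0.124 to 0.555 in HG vs SHAM, -0.0201 to 0.29 in PBS vs SHAM, -0.181 to 0.498 in HG+ORG vs HG and -0.261 to 0.418 in HG vs PBS. Nr3c1 over Esr1 ran from -0.288 to 1.05 in HG+ORG vs SHAM, -0.305 to 0.02 in PBS vs SHAM, -0.767 to 0.57 in HG+ORG vs HG and -0.16 to 1.18 in HG+ORG vs PBS. Esr1 and Nr3c1 gave r = -0.621 as deviations from group means (adjusted permutation p = 0.0119), against 0.235 as deviations without HG+ORG replicate 18. As plain levels r was -0.413 over all horns (adjusted permutation p = 0.0729) and 0.32 without that horn. Without that horn the plain levels of the other pairs gave r = -0.189 for Esr1 and Pgr, -0.243 for Esr1 and Greb1, -0.392 for Pgr and Nr3c1, -0.0219 for Pgr and Greb1, and -0.191 for Nr3c1 and Greb1, and none passed. Group levels with RLE factors or a prior count of 0.5 moved by less than 1 SD. Leaving out HG+ORG replicate 18 moved mean Esr1 in HG+ORG from 7.50 ± 1.81 to 8.24 ± 0.18 log2 CPM. That horn enters the SD of its own group, so the same limit cannot show whether a level depends on it. Outside HG+ORG replicate 18 each gene had at least 206 counts in every library, so depth limits mainly the values of that horn.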

Other observations

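The horns with the most Greb1 were alike in 2 other respects, which were noticed after their values had been seen and are given without a test. Greb1 was highest in HG replicate 16 (6.96 log2 CPM), SHAM replicate 4 (6.86) and HG replicate 13 (6.78). These 3 horns also had the lowest levels of Ihh, a progesterone-induced signal of the uterine epithelium, at -0.97, -1.83 and -0.80, where HG replicate 14 had 8.01 and PBS replicate 8 had 8.40. Padi1 and Padi2, estrogen-responsive peptidylarginine deiminases, were among their highest there, with Padi1 at 10.8, 11.5 and 10.9 and Padi2 at 10.4, 10.9 and 10.7. Pgr was 7.63, 7.01 and 7.15 in the same horns, in the lower part of its range. These traits were not particular to horns with high Greb1: SHAM replicate 3 had Padi1 at 11.5, Padi2 at 10.6 and Ihh at 0.20, and HG+ORG replicate 21 had Padi1 at 10.5, Padi2 at 9.73 and Ihh at 1.02, while Greb1 was 5.73 and 5.94 in them, in the lower part of its range.

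HG+ORG replicate 21 and SHAM replicate 3, the lowest of the 22 other horns for Pgr, had Esr1 at 8.21 and 8.89 and shared low Ccnd1, a cell cycle cyclin, at 3.44 and 2.72, where every other horn had at least 4.32. Clca1 was highest in these 2 horns, at 13.4 and 13.6, and so was Ltf, at 14.1 in both.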
